A study of Homo sapiens with 8 samples.

Results

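The comparison described here is HSF1 knockdown in A375 human melanoma cells that were under an HSP90 inhibitor. It takes 4 of the 8 arrays of the series, chosen by their titles: 2 of shHSF1 cells given 100 nM NVP-HSP990 for 3 h, and 2 of the same shHSF1 cells that also had Doxycycline, which switches the hairpin on, before the same inhibitor. Both groups therefore share the A375 background, the integrated shHSF1 vector and the inhibitor, and differ in Doxycycline. The other 4 arrays are cells with a non-targeting hairpin (shNTC) under DMSO, the solvent, 2 without and 2 with Doxycycline. They show what Doxycycline and a hairpin did without loss of HSF1, but without NVP-HSP990. A375 is a cell line with a BRAF mutation, and the measurement was mRNA by hybridization to HG-U133 Plus2 arrays, with MAS5 signals as deposited. The hairpins came from a lentiviral vector with a Doxycycline-controlled promoter and puromycin selection, in stable pools. The arrays used 1 HSF1 hairpin, so an effect of losing HSF1 and any other effect of that hairpin cannot be told apart. The growth protocol in the labels mentions Doxycycline for every line, while the titles separate cells with and without it, and the titles were followed. That protocol states 100 ng/ml Doxycycline for 3 days ahead of the 3 h treatment, with DMSO at 0.1% for the cells without inhibitor. The labels leave unstated whether a group's 2 arrays stem from independent cultures, and the p-values measure array-to-array spread that may be technical only.

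HSF1 is the transcription factor that drives the heat shock response. In resting cells it is held inactive by chaperones, among them HSP90, and when HSP90 is inhibited it forms trimers and binds heat shock elements, repeats of GAA and its complement TTC, in front of chaperone genes. Genes whose mRNA depends on HSF1 in this state are expected among those that fall when HSF1 is removed, together with any gene that moves for another reason.

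HSF1 itself checked the labels. Its MAS5 signals were 99.0 and 42.5 in the 2 arrays without Doxycycline and 5.5 and 7.3 in the 2 with it. The shNTC arrays read 38.2 and 47.3 without Doxycycline and 36.6 and 47.9 with it. HSF1 was thus low in the knockdown arrays alone, below the median probe set of those arrays. The fitted fall was 1.87 on the log2 scale of signal plus 16, with a standard error of 0.29 (adjusted p = 0.00754 by limma). Since the low signals lie near background, the size depends on the value added: it was -3.17 with 1 added and -0.90 with 64. From the 4 arrays alone the adjusted p was 0.0652. The other HSF1 probe set stood at 0.4 to 1.9 in these 4 arrays and was not tested.

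Over the 12672 genes tested, 360 differed with the knockdown at an adjusted p under 0.05, which is 2.84% of them. Of these, 234 were lower (1.85%) and 126 higher (0.994%). The median log2 change was -1.06 over the lower genes and 1.05 over the higher ones, against 0.00 over all genes tested. A change of at least 2-fold was seen in 135 lower and 72 higher genes, and of at least 4-fold in 11 and 3. The count fell by over 1.5 times without any of 6 arrays, and rose slightly without either of the other two: it was 195 and 123 without the first and the second knockdown array, 155 and 217 without the first and the second shHSF1 array without Doxycycline, 208 and 206 without either shNTC array with DMSO alone, and 380 and 379 without either shNTC array with Doxycycline. In each of the 8 fits that left out 1 array, 69 of the lower and 27 of the higher genes were called. From the 4 arrays of the comparison alone, 70 and 25 were called.

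**Figure D1:**
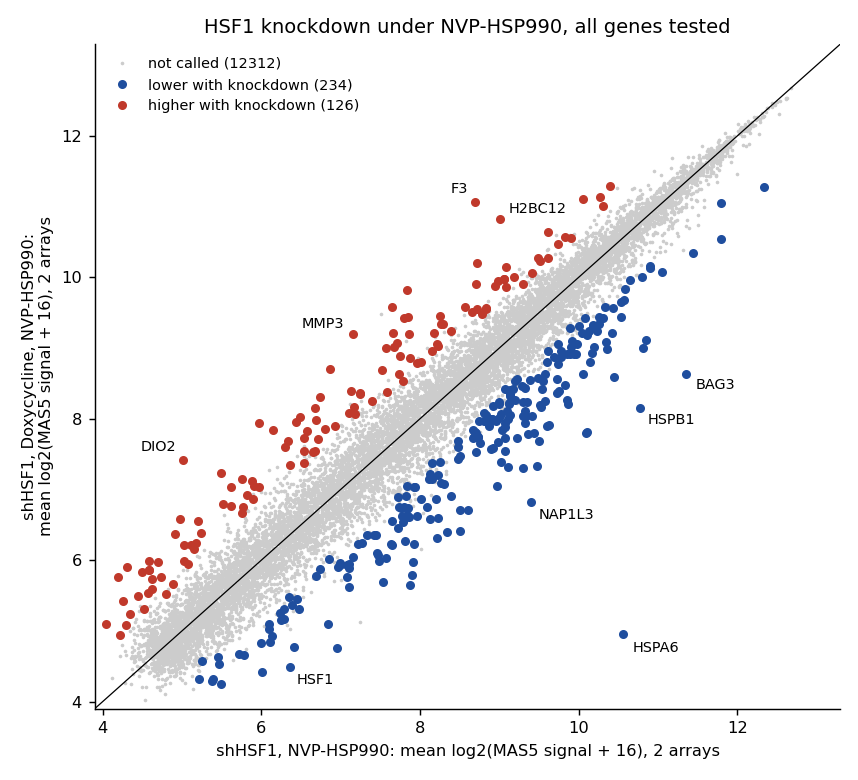
Each point is a gene, at its mean log2(MAS5 signal + 16) over the 2 shHSF1 arrays with NVP-HSP990 (x axis) and over the 2 with Doxycycline and NVP-HSP990 (y axis). Blue points are the 234 genes called lower, red points the 126 called higher and grey points the rest; the line marks equal values. HSPA6 lies farthest from the line.

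All 360 called genes had arrays that did not overlap between the groups, while among all genes tested 21.5% lay apart with both knockdown arrays higher and 21.8% with both lower. Among the lower genes, 204 (87.2%) had both knockdown arrays below all 6 other arrays, shNTC included, a placement found in 11.5% of all genes tested. Among the higher genes, 120 (95.2%) had both above all 6, against 11.1%. The called genes were chosen with these arrays, so the counts describe where the called genes stood and are no second test. The shNTC cells differ in the hairpin line as well as in the inhibitor.

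The arrays differed in RNA quality. The ACTB 3-prime to 5-prime signal ratio, which grows as RNA is degraded or labelling shortens, was 18.9 and 8.27 without Doxycycline and 10.3 and 5.63 with it, and reached 46.8 in 1 shNTC array with Doxycycline. With that ratio as a covariate, chosen after the data were seen, 292 genes were called, 95 higher and 197 lower. Correlations between the 4 arrays over all probe sets were 0.980 to 0.990. Cell identity was that of a melanocyte lineage with little pigment: MITF, the lineage's central transcription factor, read 1642 and 1966 without and 1601 and 1605 with Doxycycline, and SOX10 and PAX3 were present too, but PMEL, MLANA, TYR and TYRP1 were below the median in all 4 arrays. Summed signals of the T cell, macrophage, endothelial, hepatocyte and colon markers did not exceed 24.1 in any of the 4 arrays. The 5 keratinocyte markers summed to 1103 to 1371, nearly all of it from KRT10 and KRT14 (log2 changes 0.18 and -0.33, neither called), while KRT5, KRT1 and DSG3 were below the median. The 6 fibroblast markers summed to 630.1 and 596.3 without and 894.2 and 824.1 with Doxycycline, most of it from LUM, a matrix proteoglycan, which rose by 0.71 (standard error 0.15, adjusted p = 0.0385 by limma), while COL1A1, DCN and PDGFRA had -0.38, -0.15 and -0.40 (not called), the median of the 4 tested was -0.26, and COL1A2 and COL3A1 were below the array median. The part of these markers in the results was not tested.

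Chaperones of the cytosol held the deepest falls. Of 39 tested members of the list of cytosolic chaperones and cochaperones, 12 were lower and none higher, where 1.85% of all genes tested were lower. The list's median was -0.32 against 0.00 over all genes. HSPA1A, HSPA1B and HSPA8 were not among the 39 tested. HSPA6, a member of the HSP70 family that is expressed almost only under stress, read 1681 and 1329 without Doxycycline and 18.3 and 12.4 with it. The shNTC arrays had 5.1 to 15.5. The knockdown left HSPA6 at about the level of cells without inhibitor, a log2 change of -5.60 with a standard error of 0.24 (adjusted p = 3.88e-06 by limma), a 48.4-fold fall in signal plus 16. With 1 or 64 added the change in HSPA6 was -6.54 or -4.30, since the knockdown signals are near background. Its further probe set fell by 4.95. HSPA6 has a near-identical copy, HSPA7, whose signal the probes may not separate.

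BAG3, a cochaperone that links HSP70 to autophagy, read 2510 and 2700 without Doxycycline and 391.2 and 368.1 with it. These knockdown values were below all 4 shNTC arrays, which ranged from 601.1 to 794.7. The change was -2.73 (standard error 0.17, adjusted p = 5.56e-05 by limma). HSPB1, the small heat shock protein HSP27, went from 2006 and 1500 to 326.2 and 220.4, a change of -2.62 (standard error 0.20, adjusted p = 0.000243), and also lay below the shNTC range of 581.5 to 633.4. HSPA4L, of the HSP110 nucleotide exchange family, went from 197.6 and 242.9 to 31.7 and 36.7, against 27.6 to 35.8 in shNTC cells. The change in HSPA4L was -2.23, and that in HSPA1L, an HSP70 gene next to and closely similar to HSPA1A and HSPA1B, was -2.19, from 112.6 and 102.7 to 10.9 and 11.2 (-3.17 with 1 added, -1.19 with 64). Signal from those relatives in the HSPA1L probes cannot be told apart.

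The rest of the called chaperones had changes from -0.75 to -1.92. DNAJB1, the HSP40 partner of HSP70 in the heat shock response, read 5252 and 5026 without and 2560 and 2393 with Doxycycline, a change of -1.05 (standard error 0.18, adjusted p = 0.0130 by limma), and DNAJB4, another HSP40, changed by -1.66. HSPH1, the HSP110 exchange factor, read 3556 and 3544 without and 1308 and 1651 with Doxycycline, a change of -1.26. CRYAB, a small heat shock protein, changed by -1.59, to 6.6 and 4.2, within the shNTC range of 4.2 to 12.3. HSPB8, of the same family, changed by -1.03, and DNAJA1, an HSP40, by -0.75. FKBP5, an immunophilin that works with HSP90 on steroid receptors, changed by -1.92, from 468.1 and 505.6 to 104.4 and 130.7. FKBP5 had 428.6 to 531.9 in the shNTC arrays, so it was at its usual level under NVP-HSP990 and fell well below it with the knockdown.

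HSP90 itself did not pass the test. HSP90AA1, its inducible form, had a log2 change of -0.21 (adjusted p = 0.812 by limma) and HSP90AB1, its constitutive form, of -0.30 (adjusted p = 0.442). The cochaperones CHORDC1, STIP1 and FKBP4 had -0.92, -0.64 and -0.44 (adjusted p = 0.0872, 0.283 and 0.333). The chaperonin subunits CCT2, CCT3, CCT4, CCT5 and CCT7 lay between -0.25 and 0.01, none of them called. HSBP1, the HSF1-binding protein, had -0.32 (adjusted p = 0.378).

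Promoters of the lower genes were searched for 3 alternating units of the heat shock element, GAANNTTCNNGAA or its complement TTCNNGAANNTTC, on both strands, in RefSeq windows of 250 bases before to 50 after each gene's start (GRCh38.p14). These letters were in 0.49% of all 35116 windows and in 0.503% of the 10343 tested genes with a window. They were in 5 of 199 lower genes (2.51%) and 0 of 102 higher genes. The 5 were HSPA6, SERPINH1, DNAJA1, ZNF83, a zinc finger gene, and RBM23, an RNA-binding protein gene. The match is a description of the letters in these windows, and absence of it says only that these letters are not in the window. Below are the matched stretches upstream of the start, with the motif in capitals, shown because they stand before genes with a measured fall: the deepest (HSPA6), a chaperone of the ER (SERPINH1), and 2 genes outside the chaperones (ZNF83 and RBM23). They are at chr1:161524442-161524501 on the plus strand, chr11:75562153-75562212 on the plus strand, chr19:52690704-52690746 on the minus strand and chr14:22919150-22919192 on the minus strand.
HSPA6: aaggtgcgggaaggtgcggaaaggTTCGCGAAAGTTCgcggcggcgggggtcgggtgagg
SERPINH1: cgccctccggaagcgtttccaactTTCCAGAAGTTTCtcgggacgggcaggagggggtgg
ZNF83: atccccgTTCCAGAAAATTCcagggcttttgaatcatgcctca
RBM23: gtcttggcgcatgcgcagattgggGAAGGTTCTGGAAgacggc
The signals of ZNF83 were 456.8 and 646.5 without and 281.5 and 281.6 with Doxycycline, a change of -0.91, and RBM23 went from 548.7 and 598.0 to 348.4 and 358.5, a change of -0.67.

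SERPINH1 encodes HSP47, the collagen chaperone of the ER. It read 204.7 and 243.3 without Doxycycline and 38.8 and 40.1 with it, with 71.4 to 87.9 in shNTC cells, and changed by -2.11 (standard error 0.20, adjusted p = 0.000579 by limma). P4HA2, a prolyl hydroxylase of collagen, was lower as well, at 512.3 and 537.2 without and 212.5 and 136.8 with Doxycycline, a change of -1.53. COL5A1 rose instead, from 207.0 and 147.5 to 518.1 and 475.4, a change of 1.42, and P3H2, a prolyl 3-hydroxylase, by 0.79. P3H2 was called in none of the 8 fits that left out 1 array, and COL5A1 lost the call in 6. Of the 26 tested genes of collagens and their folding enzymes, 2 were higher and 2 lower, with a median of -0.07. Over all genes tested, 0.994% were called higher and 1.85% lower.

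The stress genes outside the cytosolic chaperones were few. HMOX1, heme oxygenase and a marker of oxidative stress, read 407.0 and 344.9 without Doxycycline and 98.7 and 78.8 with it, against 40.6 to 105.8 in shNTC cells, a change of -1.91 (standard error 0.30, adjusted p = 0.00918 by limma, and 0.0617 without the second knockdown array). It was the single called gene of 18 of the oxidative stress response, where 1.85% of all genes tested were lower. ZFAND2A, an AN1 zinc finger gene of the proteasome response, changed by -0.93, from 1001 and 991.4 to 518.7 and 510.1. The shNTC arrays had 342.5 to 417.8, so the knockdown values of ZFAND2A stayed above that range. ZFAND2A was the 1 called of 18 genes of ubiquitin, p97 and the AN1 family. DEDD2, a death effector domain gene, read 795.0 and 625.8 without and 233.6 and 155.2 with Doxycycline, against 198.4 to 226.9 in shNTC cells, a change of -1.80 (standard error 0.21, adjusted p = 0.00189). Its relative DEDD had 0.07 (adjusted p = 0.918). DEDD2 was the 1 called of 28 genes of death effectors, caspases and the BCL2 family, whose median was -0.09.

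ATF6, the ER stress sensor, was the 1 called of 22 genes of ER chaperones and the unfolded protein response. It was lower, as were 1.85% of all genes tested. It read 285.2 and 282.9 without and 128.9 and 132.9 with Doxycycline, a change of -1.03, and the list's median was 0.08. Further tested ATF6 probe sets had smaller changes of -0.43, -0.30 and -0.68 and were not called. None of 25 genes of the amino acid and integrated stress response (median -0.01), 27 proteasome subunits (0.02) and 23 autophagy and lysosome genes (-0.06) passed the test. CLPX, the ATPase of a mitochondrial protease, was the 1 called of 15 mitochondrial chaperones and proteases, at 575.4 and 660.0 without and 246.4 and 246.1 with Doxycycline. Another CLPX probe set had 0.01 (386.2 and 496.1 without, 412.8 and 469.0 with), so the probe sets disagree.

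**Figure D2:**
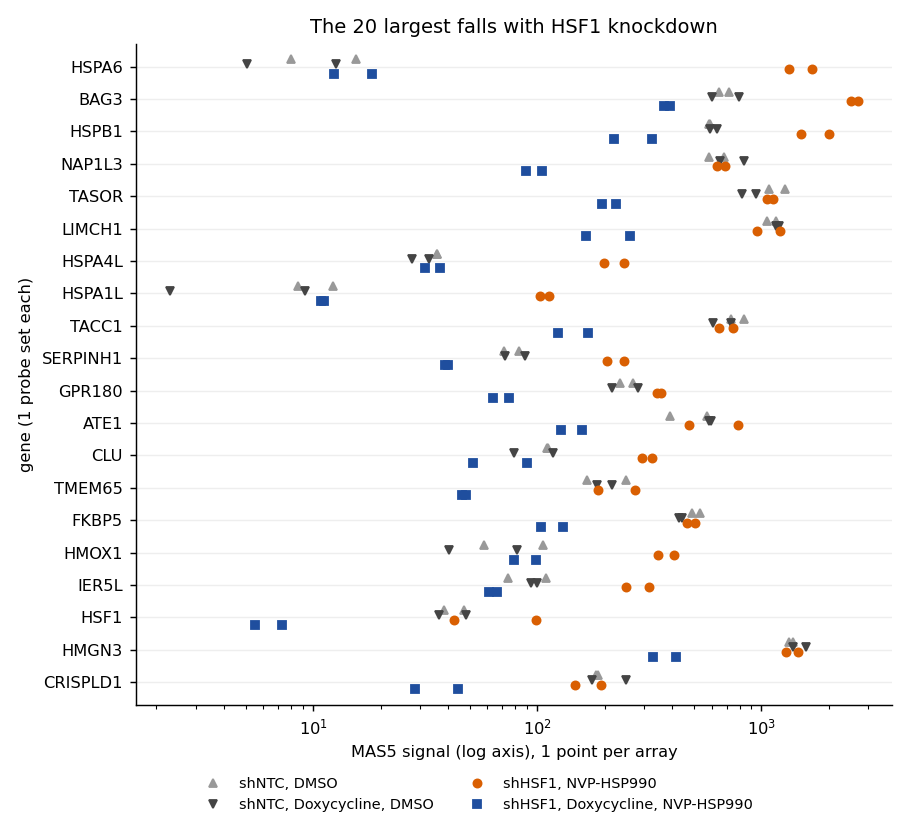
MAS5 signals on a log axis, 1 point per array, for the 20 genes with the largest falls, the deepest at the top. Orange circles are shHSF1 cells with NVP-HSP990, blue squares the same with Doxycycline, grey triangles shNTC cells. HSPA6, HSPA4L, HSPA1L, CLU and HMOX1 have at least 1 knockdown value within or above the shNTC values, and in the other 15 both lie below every shNTC array.

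Among the 20 largest falls, 9 were genes not counted here as chaperone or stress genes. In 8 of these 9 the arrays without Doxycycline overlapped the range of the shNTC arrays (GPR180 lay above it), and in all 9 the knockdown arrays were below both. NAP1L3, of the nucleosome assembly protein family, read 686.2 and 636.6 without and 105.3 and 89.1 with Doxycycline, against 585.2 to 834.6 in shNTC cells. It changed by -2.58 (standard error 0.17, adjusted p = 9.76e-05 by limma), a 6.00-fold fall. TASOR, the scaffold of the HUSH complex that silences genes and transposons through H3K9 methylation, went from 1125 and 1055 to 224.1 and 195.5, against 818.9 to 1279. Its change was -2.29 (standard error 0.16, adjusted p = 9.76e-05), and the further tested probe set fell by 1.35. TASOR was the 1 called of 16 genes of HUSH and heterochromatin (median -0.16), where 1.85% of all genes tested were lower. MPHOSPH8 and MORC2, its partners, and SETDB1, the methyltransferase, had -0.11, 0.27 and -0.27, with adjusted p from 0.573 to 0.860.

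LIMCH1, an activator of nonmuscle myosin, went from 1206 and 954.3 to 258.7 and 164.3, a change of -2.29. All 3 tested LIMCH1 probe sets fell, by 1.14 to 2.38. TACC1, a coiled-coil protein of the centrosome, went from 743.4 and 648.9 to 169.3 and 124.4, a change of -2.14, and 4 further probe sets of it had changes from -1.94 to 0.12. GPR180, a membrane protein, went from 356.5 and 340.9 to 74.9 and 63.5, a change of -2.10, with 4 further probe sets at -0.97 to -2.10. HMGN3, a nucleosome-binding protein, went from 1288 and 1464 to 330.1 and 414.0, a change of -1.85 (standard error 0.16, adjusted p = 0.000473 by limma).

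ATE1, the arginyltransferase of the N-degron pathway, read 475.8 and 786.1 without and 127.8 and 158.9 with Doxycycline, a change of -1.99, but 2 further probe sets had -0.38 and -0.04 and were not called. TMEM65, of the inner mitochondrial membrane, changed by -1.94, with -0.31 in its further probe set. CRISPLD1, a secreted cysteine-rich protein, went from 193.5 and 147.0 to 44.2 and 28.5, a change of -1.84. CLU, clusterin, a secreted chaperone, changed by -1.94, from 294.9 and 325.1 to 90.1 and 51.8. IER5L, a relative of the immediate early gene IER5, changed by -1.90, from 315.4 and 248.4 to 65.9 and 61.2.

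Of 21 integrin and adhesion genes, 2 were lower and none higher, with a median of -0.10, where 1.85% of all genes tested were lower. ITGA1, a collagen-binding integrin subunit, went from 104.4 and 92.7 to 18.8 and 18.0, a change of -1.73 (standard error 0.26, adjusted p = 0.00613 by limma), or -2.36 with 1 added and -0.98 with 64. ITGB1, its beta partner, went from 2563 and 2991 to 1210 and 1356, a change of -1.10, and lay below all shNTC arrays, which had 2259 to 3359. RAB38, a GTPase of melanosome transport, was the 1 called of 12 melanocyte lineage genes, at 366.4 and 331.1 without and 181.4 and 143.3 with Doxycycline. That list had a median of -0.31, with 11 of 12 members below 0, as were 49.8% of all genes tested.

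**Figure D3:**
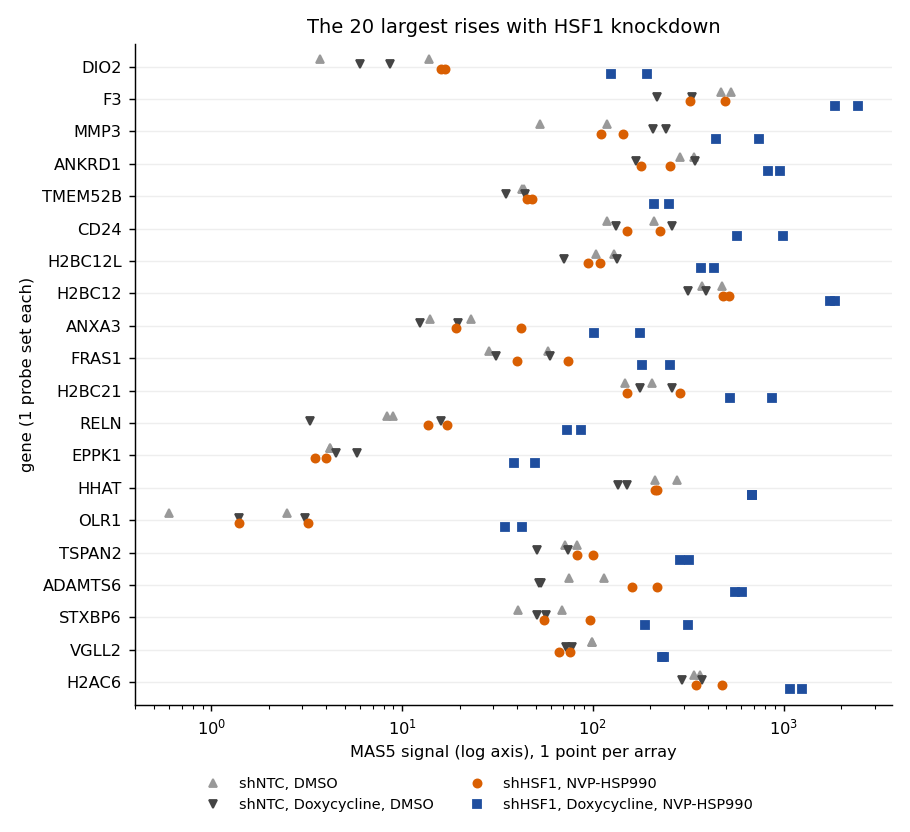
MAS5 signals on a log axis, 1 point per array, for the 20 genes with the largest rises, the highest change at the top. Symbols are as in the plot of the largest falls. The blue squares (Doxycycline and NVP-HSP990) lie to the right of all 6 other arrays for every gene.

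The largest rises were in DIO2, F3 and MMP3. DIO2, the deiodinase that makes active thyroid hormone, read 15.9 and 16.8 without Doxycycline and 191.8 and 124.2 with it, against 3.7 to 13.9 in shNTC cells. Its change was 2.40 (standard error 0.25, adjusted p = 0.00106 by limma), and 2 further tested probe sets rose by 1.47 and 1.94. With 1 or 64 added the change in DIO2 was 3.16 or 1.45. F3, tissue factor, the trigger of coagulation, went from 322.9 and 493.0 to 1864 and 2449, against 217.5 to 528.2 in shNTC cells, a change of 2.37 (standard error 0.24, adjusted p = 0.00103). MMP3, the protease stromelysin, went from 144.5 and 110.7 to 744.1 and 439.6. The change in MMP3 was 2.04, but Doxycycline raised it in shNTC cells as well, from 118.2 and 52.5 to 241.0 and 206.0, and the difference of both changes was 0.73 (adjusted p = 0.667).

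F3 and ANKRD1 belong to the list of YAP and TEAD targets, genes that respond to cell shape and tension. ANKRD1 went from 178.8 and 252.0 to 821.9 and 951.6, a change of 1.98 (standard error 0.28, adjusted p = 0.00515 by limma). Of 17 tested members 2 were higher and 1 lower, where 0.994% and 1.85% of all genes tested were, and the median was 0.25. The lower one was AMOTL1, which restrains YAP, with -1.24, from 1108 and 1168 to 504.3 and 445.2. CCN1 and CCN2, widely used markers of this list, did not pass: CCN1 had 0.79 (adjusted p = 0.0735) and CCN2 0.71 (adjusted p = 0.116). VGLL2, a cofactor of TEAD proteins that was not in the list, rose by 1.52, from 66.4 and 75.7 to 235.5 and 230.8.

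CD24, a surface sialoglycoprotein, read 225.5 and 151.0 without and 986.0 and 569.1 with Doxycycline, a change of 1.93 (standard error 0.36, adjusted p = 0.0197 by limma, and 0.103 without the first knockdown array). HHAT, the acyltransferase that lipidates Hedgehog ligands, had 216.9 and 211.9 without and 678.5 and 680.2 with Doxycycline, a change of 1.59, with close agreement within groups. ADAMTS6, a metalloprotease, changed by 1.56, from 160.0 and 215.6 to 558.2 and 603.7. With MMP3 it made 2 of 21 tested matrix proteases and inhibitors called higher, against 0.994% of all genes tested. MMP1 had -1.08 (adjusted p = 0.275 by limma). TSPAN2, a tetraspanin, changed by 1.57, and STXBP6, a SNARE-binding protein, by 1.53.

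Several rises started from signals near background. EPPK1, epiplakin of the keratin network, went from 3.5 and 4.0 to 38.7 and 49.8, and OLR1, the receptor of oxidized LDL, from 3.2 and 1.4 to 34.5 and 42.6. Their changes were 1.60 and 1.57 with 16 added, 3.24 and 3.63 with 1 added, and 0.67 and 0.63 with 64 added. Both reached the array median only in the knockdown arrays, so they were tested through those arrays alone and only a rise could be called. RELN, reelin, went from 13.7 and 17.2 to 86.1 and 73.4, a change of 1.61 (2.30 with 1 added, 0.85 with 64). ANXA3, an annexin, and FRAS1, a basement membrane protein, changed by 1.74 and 1.70, and TMEM52B by 1.97, from 45.2 and 48.0 to 209.8 and 251.5.

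Histone genes formed the list with the most calls in the upward direction. Of 17 tested members 8 were higher and none lower, where 0.994% of all genes tested were higher, and the median was 0.79. Among the 8, H2BC11 reached the array median only in the knockdown arrays (23.4 and 24.3), so it was tested through those alone. H2BC12, a core histone H2B gene, read 479.1 and 517.8 without Doxycycline and 1754 and 1859 with it, against 315.7 to 471.9 in shNTC cells, and changed by 1.82 (standard error 0.17, adjusted p = 0.000500 by limma). H2AC6, an H2A gene, went from 475.6 and 345.9 to 1253 and 1080, a change of 1.48. H2BC21 changed by 1.63 and H2BC5 by 1.29, and H1-2, a linker histone, by 0.94, from 493.8 and 460.5 to 1107 and 777.5. The H2B genes are near copies of each other and H2BC12L read much like H2BC12 (1.83), so which copy rose is uncertain. The counted histone genes are therefore not independent, and their count may hold the same signal more than 1 time.

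In all, 33 tested genes carry a histone symbol, the 17 of the list among them, and the whole 33 had a median of 0.45 with 23 above 0. The 16 outside the list added 3 called genes, H2BC4, H2BC6 and H2BC12L, all higher. H2BC4 was tested only through the knockdown arrays (54.6 and 41.2), and near copies are counted separately here too. On chromosome 6, which holds the main histone clusters, 9 of 20 histone genes were higher, against 19 of all 667 genes tested there (2.85%). Replication histone mRNA is usually made in S phase and lacks a poly(A) tail. The 38 genes of S phase and DNA replication had no called member and a median of -0.14, with 29 of 38 below 0. The 38 of G2 and M phase had none, at -0.17 with 28 of 38 below 0. Over all genes tested, 49.8% were below 0. The 19 tested genes of ribosome biogenesis had a median of 0.10.

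**Figure D4:**
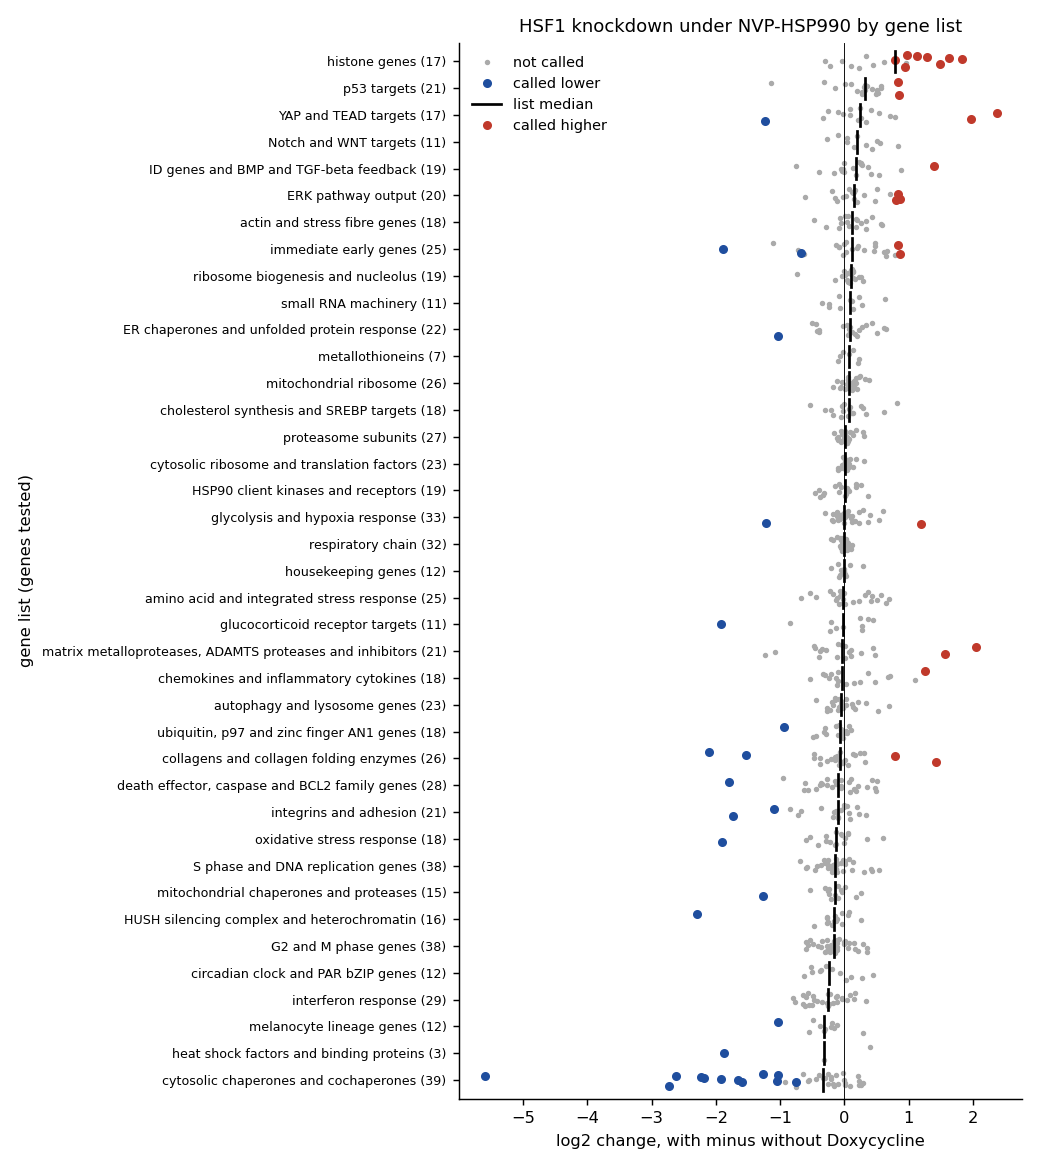
The log2 change with Doxycycline in shHSF1 cells under NVP-HSP990, 1 point per tested gene, for 39 gene lists ordered by their median (black bar), with the number of tested genes in brackets. Cytosolic chaperones lie at the bottom with a median of -0.32 and 12 blue points (lower), and histone genes at the top with a median of 0.79 and 8 red points (higher).

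Signalling genes were called in both directions. EGR1, an immediate early transcription factor, went from 1265 and 1171 to 2314 and 2161, a change of 0.87 (standard error 0.14, adjusted p = 0.0117 by limma). MYC rose by 0.84 (adjusted p = 0.0490), from 82.2 and 72.6 to 145.1 and 156.2, and DUSP5, the phosphatase that ERK induces against itself, by 0.80 (adjusted p = 0.0160), from 709.4 and 690.6 to 1199 and 1257. These 3 were the called genes of 20 in the list of ERK pathway output, all of them higher, where 0.994% of all genes tested were, and the median was 0.15. FOS, in contrast, went from 22.5 and 21.9 to 8.1 and 7.5, with 7.7 to 9.3 in shNTC cells, a change of -0.68 (adjusted p = 0.0477), or -1.40 with 1 added and -0.26 with 64. FOS reached the array median only in the shHSF1 arrays without Doxycycline, so it was tested through those arrays alone and only a fall could be called. Of 25 immediate early genes 2 were higher and 2 lower. MYC and FOS were called in none of the 8 fits that left out 1 array. None of 19 HSP90 client kinases and receptors passed at the mRNA level, with a median of 0.00.

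Among feedback and damage genes, SMAD7, the inhibitor of TGF-beta signalling, rose by 1.39, from 32.6 and 44.5 to 118.0 and 134.7. The shNTC arrays had 58.0 to 143.3, so the knockdown values lay within the range of cells without inhibitor. TNFAIP3, the inhibitor of NF-kB, rose by 1.26, from 104.8 and 145.7 to 260.3 and 389.2, as 1 of 18 chemokine and inflammatory genes. Of 21 p53 targets 2 were higher, AEN with 0.85 and ZMAT3 with 0.83. In all, 18 of 21 lay above 0, with a median of 0.33, while CDKN1A had 0.27 (adjusted p = 0.646 by limma). Over all genes tested, 49.8% lay below 0. ZMAT3 also read higher with Doxycycline in shNTC cells, 403.1 and 359.5 without and 595.5 and 506.4 with it (not called). The difference of its 2 changes was 0.32 (adjusted p = 0.735 by limma). ADM, adrenomedullin, rose by 1.20 and ANKRD37, another hypoxia gene, fell by 1.22, as the 2 called of 33 genes of glycolysis and hypoxia. FKBP5, which fell, was the 1 called of 11 glucocorticoid receptor targets. Over all genes tested, 0.994% were called higher and 1.85% lower.

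Of the 39 lists, 18 had no called gene among 388 tested members, with medians from -0.26 to 0.19. Over all genes tested 2.84% were called, and these lists are set apart by having no call. They include the 29 interferon response genes, at -0.26 with 24 of 29 below 0, as were 49.8% of all genes tested. They also include the respiratory chain (32 genes, median 0.00), the mitochondrial ribosome (26 genes, 0.07), cholesterol synthesis (18 genes, 0.07), the 18 actin and stress fibre genes (0.13) and the 12 housekeeping genes (-0.01).

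Of the 63 named genes that were called, 38 were called in each fit that left out 1 array. The other 25 lost the call in at least 1 such fit. They were HMOX1, CD24, ANXA3, FRAS1, H2BC21, STXBP6, ATF6, ZFAND2A, EGR1, MYC, FOS, DUSP5, RAB38, AMOTL1, P4HA2, COL5A1, P3H2, ITGB1, SMAD7, H2BC5, AEN, ZMAT3, ANKRD37, TNFAIP3 and LUM. MYC, FOS and P3H2 lost the call in all 8 fits, and COL5A1, SMAD7, AEN, ANKRD37 and LUM in 6. HMOX1, ATF6 and ZFAND2A lost it in 1. The number that lost the call was 14 and 22 without the first and second knockdown array, 18 and 16 without the first and second shHSF1 array without Doxycycline, 9 without either shNTC array with DMSO alone, and 4 without either shNTC array with Doxycycline. None of the 63 changed sign. HSF1, ATE1, CLPX and RELN are not among the 25 but lost the call in a setting other than these fits. Their highest adjusted p by limma was 0.0652, 0.0512, 0.0558 and 0.0578.

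Many genes have further probe sets that the choice of 1 per gene did not use. The 152 lower genes with such probe sets had 292 of them, and 247 (84.6%) had a change below 0. For the 51 higher genes, 86 of 89 (96.6%) had a change above 0. Fewer were called in the same direction when tested singly, 57 of the 292 and 18 of the 89. Their median changes were -0.45 over the 292 and 0.72 over the 89. Among genes that were not called, 66.4% of further probe sets shared the sign of the chosen one. In 15 of 203 called genes every further probe set had the opposite sign. NDC1, a nuclear pore protein, is an example: the chosen probe set went from 1657 and 1911 to 465.4 and 530.3, a change of -1.81, and the other from 638.5 and 457.1 to 592.3 and 518.5, a change of 0.04. PTBP3, an RNA-binding protein, changed by -1.20 in the chosen probe set and by 0.12 to 0.80 in 4 others.

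Doxycycline in shNTC cells, which share no array with this comparison, gave no called gene by limma (306 at an unadjusted p under 0.05, and 0 by the t-test after adjustment). Over the 234 lower genes the median change with Doxycycline in shNTC cells was 0.04, with a range of -0.90 to 0.84, and over the 126 higher genes -0.10, from -1.01 to 1.32. The size stayed under 0.5 in 227 of the lower and 115 of the higher genes. ITGA1 at 0.84 and MMP3 at 1.32 were the highest. On the other side, F3 had -0.85, HHAT -0.70 and ADAMTS6 -0.66, none of them called. The shNTC cells had DMSO, so an effect of Doxycycline that needs NVP-HSP990 was not measured.

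**Figure D5:**
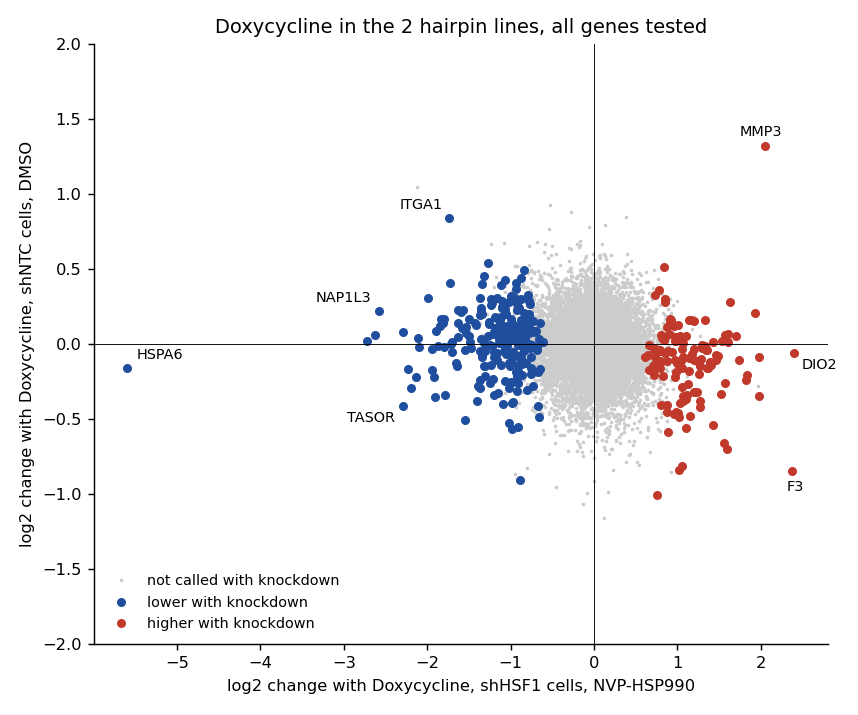
The log2 change with Doxycycline in shHSF1 cells under NVP-HSP990 (x axis) against that in shNTC cells under DMSO (y axis), 1 point per gene tested, each from 2 arrays against 2. The called genes spread along the x axis around 0 on the y axis, with MMP3 at 1.32 and ITGA1 at 0.84 above it and F3 at -0.85 below it.

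The difference of the 2 Doxycycline changes, tested as an interaction, passed for 100 genes, 0.789% of those tested, 39 with a higher and 61 with a lower change in shHSF1 cells. It holds the knockdown change within it, and the hairpin and NVP-HSP990 go together in it. HSPA6 had -5.44 (adjusted p = 0.000172 by limma), BAG3 -2.74 (adjusted p = 0.00149) and NAP1L3 -2.80 (adjusted p = 0.00149). The difference was -1.88 for TASOR (adjusted p = 0.00722), 3.22 for F3 (adjusted p = 0.00569) and 2.07 for H2BC12 (adjusted p = 0.00705). F3 had -0.85 with Doxycycline in shNTC cells, so its difference exceeded its knockdown change of 2.37. The difference for HSF1 was -1.86, with an adjusted p of 0.0768 by limma. The count fell to 7 and 13 when an shNTC array with DMSO alone was left out (the first, then the second), to 42 and 62 without the second knockdown array and the first shHSF1 array without Doxycycline, and to 34 and 24 without the first and second shNTC array with Doxycycline.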

How the data were processed

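The series holds 8 HG-U133 Plus2 arrays of mRNA, and their titles give 4 groups of 2; the description fields name other experiments and were not used. Per the labels, each deposited value is a signal intensity from the authors' MAS5 step (version not given in the sources used here), scaled per array to a mean of 150 with 2 percent trimmed at each end, and they were not normalized further. Of 54675 probe sets, 41091 have 1 gene symbol in the platform annotation, 1801 have several, 11721 have none and 62 are controls. Each of 19775 genes was represented by its brightest probe set (mean log2 signal), and was tested if it reached the array median in 2 or more of the 8 arrays. A gene could thus be tested through the 2 arrays of 1 group alone. With 16 added, log2 signals were fitted with limma 3.58.1 in R 4.3.3 as 4 group means over all 8 arrays (4 residual degrees of freedom, 6.36 prior), with a variance trend, two-sided tests and Benjamini-Hochberg adjustment over all genes tested. The steps were tested on simulated data.

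Members and lists were chosen with earlier results of these data known. Named were HSF1, HSPA6, DEDD2, DEDD and BAG3, the 20 largest called rises and falls whose arrays do not overlap, up to 4 called members per list, and markers. Outside this rule, genes that did not pass, the remaining called chaperones and histones, ZNF83, RBM23, NDC1 and PTBP3 were named after their values were seen. Alternatives were other values added, filters, normalizations, probe set rules, variances, the 4 arrays alone, a replicate block, a fold limit, the methods' t-test and each array left out. A covariate on the ACTB ratio was added after the data were seen. The number of arrays limits the precision. Figures were drawn with matplotlib 3.10.9 in Python 3.11.15.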

Additional observations from a re-analysis of the deposited data

Results flagged for a closer look

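The change with Doxycycline in shHSF1 cells under NVP-HSP990 differed from that in shNTC cells under DMSO, by the interaction test, for 100 genes, of which 35 are named here. Their differences (log2, shHSF1 minus shNTC change) were lower for 20. HSPA6 had -5.44, NAP1L3 -2.80, BAG3 -2.74, HSPB1 -2.68 and ITGA1 -2.57. LIMCH1 had -2.37, ATE1 -2.29, SERPINH1 -2.15, GPR180 -2.08, HSPA4L -2.07 and CRISPLD1 -2.0. IER5L had -1.98, HMGN3 -1.97, TACC1 -1.92, TMEM65 -1.91, HSPA1L -1.89 and TASOR -1.88. DEDD2 had -1.78, FKBP5 -1.70 and CLPX -1.33. The difference was higher for 15: EGR1 with 1.28, OLR1 with 1.52, ADM with 1.52, EPPK1 with 1.54, H2AC6 with 1.56, TSPAN2 with 1.83 and VGLL2 with 1.85. H2BC12L had 2.04, TMEM52B 2.06, H2BC12 2.07, ADAMTS6 2.22, HHAT 2.29, ANKRD1 2.33, DIO2 2.46 and F3 3.22. These differences were tested with limma and adjusted over all genes. OLR1 and EPPK1 were tested only through their knockdown arrays. Part of the difference in F3, HHAT and ADAMTS6 was a fall with Doxycycline in shNTC cells, and in ITGA1 a rise there (not called).

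Probe sets with several gene symbols or none were not used in the comparison. Of 4668 tested among them, 54 (1.16%) were called with the knockdown, 21 higher and 33 lower.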

How the results depend on the processing

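The count of 360 genes called with the knockdown moved to 221 without the filter, 95 from the 4 arrays alone, 207 with a fold of at least 2, and 1413 by the methods' t-test at an unadjusted p under 0.05 (0 after adjustment). Leaving out 1 array gave 123 to 380. The count of 100 for the difference of the Doxycycline changes moved to 59 without the filter and 33 with the ACTB ratio as a covariate, and lay between 7 and 76 with 1 array left out. Doxycycline in shNTC cells stayed at 0 in every fit except the unadjusted t-test, which gave 588. With a replicate block the counts were 752, 0 and 279. The same-numbered arrays of the 2 shHSF1 groups deviated together (r = 0.685), and those of the 2 shNTC groups had r = 0.464. Between the hairpin lines r was 0.016 to 0.276. The second array of each group is titled Repeat 1, but the titles do not say that a number marks a shared batch. Otherwise the knockdown count was 273 (median centring) to 462 (all probe sets singly). DEDD, not called (0.07), had -0.0867 to 0.2223 with 1 array left out, and was below 0 without the first knockdown array or the second shHSF1 array without Doxycycline. Why counts moved was not tested. Signals near background limit the size of changes in dim genes.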
